A study of Canis lupus familiaris with 6 samples.

Results

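The heat shock chaperones examined here are 10 genes of the HSP70, HSP90, HSP60 and J-domain protein families, found in the deposited table by their gene symbols. A row was found for 8 of the 10, namely HSPA8, HSPA5, HSP90AA1, HSP90AB1, HSP90B1, HSPA4, DNAJB1 and HSPH1, among 31512 genes in all. HSPD1 and HSPE1, the chaperonin and co-chaperonin of mitochondria, have no row under these symbols. The data are RNA-seq of whole blood from adult Beagle dogs, with 1 library per dog. Blood of day 30 was sequenced from 6 dogs, 3 that received no CPP-Se (control) and 3 that received it. All dogs ate the same maintenance food and a daily snack, which contained casein phosphopeptide-selenium chelate (CPP-Se) in the CPP-Se group only.

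Heat shock proteins fold new proteins and refold damaged ones. HSP70 proteins hold unfolded stretches through a cycle of ATP binding and hydrolysis, J-domain proteins such as DNAJB1 bring them substrates and start the hydrolysis, and nucleotide exchange factors such as HSPH1 and HSPA4 reset the cycle. HSP90 proteins take over clients at a late stage of folding, among them many kinases and steroid receptors. In the cytosol these genes are switched on by the heat shock factor HSF1, while HSPA5 and HSP90B1 of the endoplasmic reticulum (ER) follow the unfolded protein response.

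The authors deposited FPKM, the fragments on a gene scaled by its length and by library size, which allows levels to be compared between genes. The reads on genes, recovered from the FPKM, numbered 6598173 to 8067034 per dog. In CPP-Se replicate 2, hemoglobin genes held 36.6% of these reads, against 48.7% to 55.9% in the other dogs, and the library size implied by its FPKM was 1.65 times its reads on genes, against 0.882 to 1.05 times elsewhere. Hemoglobin and red cell genes led the libraries, with summed FPKM of 8 red cell markers between 5977 and 13015. Whole blood mixes cell types, so fewer cells of a type and less RNA per cell cannot be told apart. The FPKM of the groups were compared as log2(FPKM + 1) by limma with Benjamini-Hochberg adjustment, for the 9847 genes whose mean reached 1 FPKM. Genes were called differentially expressed (DEGs) when the adjusted p was under 0.05 and the groups differed at least 1.5-fold. All 8 chaperone genes passed the filter.

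None of the 8 chaperone genes was a DEG, beside 0.0305% of all genes tested (3 genes, 0 of them higher and 3 lower with CPP-Se). With FPKM rescaled to a common sum there were 12 DEGs, 8 higher and 4 lower, and again none of the 8. Limma-voom on the recovered reads, without and with sample quality weights, also called 0 of the 8, beside 0.0102% and 1.58% of all genes tested (0.0102% and 1.06% lower). DNAJB1 was the 1 gene of the 8 whose unadjusted p was under 0.05, beside 16.0% of all genes tested (6.87% higher and 9.10% lower). The groups did not overlap for DNAJB1, which was lower in the CPP-Se group, and for HSP90AA1, which was higher. Groups without overlap were found for 23.0% of all genes tested, so 2 of 8 is close to the background. With a common sum of FPKM these were again the 1 higher and 1 lower gene of the 8, beside 10.6% and 3.15% of all genes tested. The median log2 fold change of the 8 genes was 0.04, against -0.00 over all genes tested, and the median size of the change was 0.08 against 0.28.

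**Figure D1:**
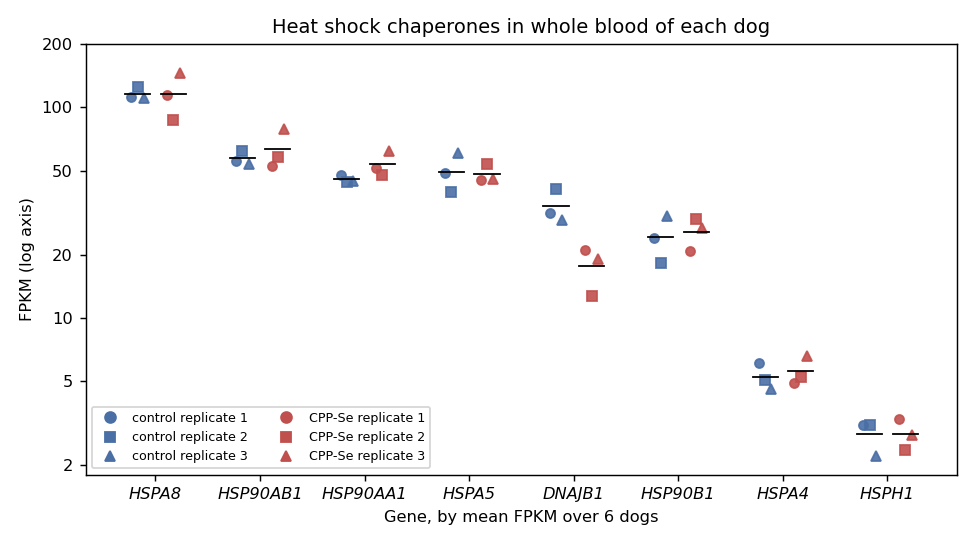
FPKM (log axis) of the 8 chaperone genes in each dog, ordered by mean FPKM over the 6 dogs, with control dogs in blue, CPP-Se dogs in red and black bars for the group means. The CPP-Se dogs lie below all control dogs in DNAJB1, at 12.7 to 21.1 against 29.1 to 41.1 FPKM, while the dogs of the groups are mixed in most other genes.

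DNAJB1, the main cytosolic J-domain partner of HSP70, showed the widest difference of the 8 genes. Its expression (ENSCAFG00000016286, chromosome 20, 48121379 to 48130060) was 31.5, 41.1 and 29.1 FPKM in control replicates 1, 2 and 3, and 21.1, 12.7 and 19.2 FPKM in CPP-Se replicates 1, 2 and 3. Each CPP-Se dog was below each control dog. CPP-Se replicate 2 was the lowest as deposited, and CPP-Se replicate 3 (16.5) with FPKM rescaled to a common sum. The group means were 33.9 ± 6.38 and 17.6 ± 4.40 FPKM (SD, n = 3 dogs per group), so the CPP-Se mean was 52.0% of the control mean. On the log2(FPKM + 1) scale the difference was -0.92 (standard error 0.24, 95% interval -1.48 to -0.36), and the Benjamini-Hochberg adjusted p from limma was 0.176. Only 3.14% of all genes tested had a lower log2 fold change. The reads behind these values were 314, 383 and 341 in the control dogs, against 197, 247 and 171 with CPP-Se. With each dog left out in turn, the log2 fold change of DNAJB1 lay between -1.06 and -0.71, and without CPP-Se replicate 2 it was -0.71 (adjusted p = 0.219 from limma). The adjusted p nearest the threshold over all settings tried was 0.0715, from limma-voom with sample quality weights. No other row of the file overlaps DNAJB1, and the nearest, TECR, lies 1087 bases away on the other strand.

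Marker genes of blood cell types differed between the same dogs. The summed FPKM of 6 monocyte markers was 269 to 384 in the control dogs and 185 to 200.2 in the CPP-Se dogs, and 5 of the 6 were lower without overlap, beside 12.6% of all genes tested. Neutrophil markers (6 found) summed to 2017 to 2743 and 1593 to 2083 FPKM, with CSF3R and CXCR2 lower without overlap among 5 tested. MMP9 differed the other way in CPP-Se replicates 1 and 3, with 96.3, 68.3 and 86.1 FPKM in the control dogs, against 729, 23.7 and 540.0 with CPP-Se (log2 fold change 1.35, standard error 1.14). The sums were higher in the CPP-Se dogs for 8 T cell markers, at 199.5 to 271 against 93.1 to 177 FPKM, and for 7 B cell markers, at 414 to 459 against 273 to 392 FPKM. NK and cytotoxic cell markers (7 found) summed to 40.3 to 58.8 against 15.7 to 33.4 FPKM. Platelet markers (6 found) overlapped between the groups, at 837 to 1781 FPKM in the control dogs and 589 to 2092 FPKM in the CPP-Se dogs, as did the red cell markers, at 6443 to 11102 FPKM in the CPP-Se dogs against 5977 to 13015. Immediate early genes, which respond within minutes to stress and handling, summed to 563 to 645 FPKM in the control dogs and 449 to 516 FPKM in the CPP-Se dogs (12 found, 9 tested). FOS, JUN, JUNB and DUSP1 (4 of the 9) were lower without overlap. EGR1, below the filter, was higher without overlap at 1.05 to 1.52 against 0.458 to 0.899 FPKM, and IER2, IER3 and BTG2 had log2 fold changes of 0.050, 0.28 and 0.093. No marker found was at 0 in all dogs. Several of these separations held only for FPKM as deposited. With a common sum, monocyte sums were 242 to 390 and 160 to 307 FPKM, and B cell sums 277 to 384 and 372 to 635 FPKM. Immediate early sums were 539 to 655 and 387 to 722 FPKM on that scale. Neutrophil sums overlapped as deposited and again with a common sum, at 1816 to 2684 and 1374 to 2522 FPKM. In each of these lists the groups overlapped with a common sum, and CPP-Se replicate 2 was the highest CPP-Se dog. VCAN, CD163, DUSP1 and FOS were then the markers lower without overlap, while CSF3R, CXCR2, JUNB and JUN overlapped. The T cell sums (94.5 to 159 against 224 to 306 FPKM) and the NK and cytotoxic cell sums (15.9 to 30.0 against 50.6 to 61.8 FPKM) stayed apart. The part of these differences in the DNAJB1 result was not tested.

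Of the cytosolic HSP70 genes, HSPA8 encodes the constitutive HSC70, which also uncoats clathrin vesicles. It had the highest level of the 8 genes (ENSCAFG00000011666, chromosome 5, 11292262 to 11296797), and 3.84% of the genes tested had a higher mean FPKM. Its FPKM were 112, 125 and 110.3 in the control dogs, against 114, 86.6 and 145 with CPP-Se. CPP-Se replicates 3 and 2 were the highest and the lowest of all 6 dogs, so the control dogs lay within the range of the CPP-Se dogs. The group means were 115.7 ± 7.99 and 115.2 ± 29.2 FPKM (SD, n = 3 dogs per group), and the log2 fold change was -0.04 (standard error 0.23, 95% interval -0.57 to 0.50). Its sign depended on the scaling and on single dogs, as the log2 fold change was 0.15 without CPP-Se replicate 2 and 0.021 without control replicate 2.

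HSPA4 and HSPH1 encode HSP110 proteins, large relatives of HSP70 that act as its nucleotide exchange factors. HSPA4 (ENSCAFG00000000948, chromosome 11, 21290621 to 21505122) had 6.12, 5.06 and 4.58 FPKM in the control dogs, against 4.94, 5.23 and 6.57 FPKM with CPP-Se. HSPH1 (ENSCAFG00000006538, chromosome 25, 8972724 to 8997893) had the lowest level of the 8 genes, with 3.10, 3.10 and 2.22 FPKM in the control dogs, against 3.30, 2.37 and 2.78 FPKM with CPP-Se. The groups overlapped in both genes. The log2 fold changes were 0.07 for HSPA4 (95% interval -0.37 to 0.51) and 0.01 for HSPH1 (95% interval -0.47 to 0.49). HSPH1 rested on 62 to 115 reads per dog and HSPA4 on 140 to 309. Both values turned negative under some settings.

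The cytosolic HSP90 genes followed HSPA8 in mean FPKM over all 6 dogs, although HSP90AA1 and HSPA5 did not differ beyond their spread. HSP90AB1, the constitutive form (ENSCAFG00000041148, chromosome 12, 12660008 to 12664940), had 55.9, 62.0 and 54.0 FPKM in the control dogs, against 52.6, 58.1 and 78.7 FPKM with CPP-Se. As deposited, only CPP-Se replicate 3 stood above the control dogs, and the log2 fold change was 0.12 (standard error 0.21, 95% interval -0.36 to 0.60). Without CPP-Se replicate 3 it was -0.05. HSP90AA1, the stress-inducible form (ENSCAFG00000018036, chromosome 8, 70092217 to 70095243), had 47.6, 44.1 and 44.8 FPKM in the control dogs, against 51.6, 47.8 and 62.2 FPKM with CPP-Se. Each CPP-Se dog lay above each control dog, but CPP-Se replicate 2 (47.8) was within 1 FPKM of control replicate 1 (47.6). With FPKM rescaled to a common sum, CPP-Se replicate 2 was instead the highest at 73.4, and the groups again did not overlap (39.7 to 46.6 against 48.2 to 73.4). The group means were 45.5 ± 1.86 and 53.9 ± 7.46 FPKM (SD, n = 3 dogs per group). The log2 fold change was 0.23 (standard error 0.18, 95% interval -0.18 to 0.65, Benjamini-Hochberg adjusted p = 0.572 by limma). It stayed above 0 under each setting tried, between 0.13 and 0.38.

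HSPA5, the HSP70 of the ER that is also known as BiP or GRP78, and HSP90B1, the HSP90 of the ER that is also known as GRP94, varied in parallel among the dogs. HSPA5 (ENSCAFG00000020196, chromosome 9, 57850922 to 57855257) had 48.6, 39.4 and 60.4 FPKM in the control dogs, against 45.4, 53.6 and 45.7 FPKM with CPP-Se. HSP90B1 (ENSCAFG00000007427, chromosome 15, 42456764 to 42579311) had 23.9, 18.2 and 30.6 FPKM in the control dogs, against 20.8, 29.5 and 26.7 FPKM with CPP-Se. As deposited, in both genes control replicate 3 was the highest and control replicate 2 the lowest of the 6 dogs, so the CPP-Se dogs lay within the range of the control dogs. With FPKM rescaled to a common sum, CPP-Se replicate 2 was instead the highest dog in both genes. It had 82.3 for HSPA5, against 35.5 to 61.3 in the control dogs, and 45.3 for HSP90B1, against 16.4 to 31.0. For FPKM as deposited, the log2 fold changes were -0.02 for HSPA5 (95% interval -0.50 to 0.47) and 0.10 for HSP90B1 (95% interval -0.46 to 0.65). Both signs turned with single dogs left out. HSPA5 ranged from -0.17 to 0.13 and was above 0 without control replicate 3, CPP-Se replicate 1 or CPP-Se replicate 3. HSP90B1 ranged from -0.087 to 0.27 and was below 0 without control replicate 2 or CPP-Se replicate 2. The order of the control dogs seen in these genes, replicate 2 below 1 below 3, was also found in 11 of the 20 tested genes of the ER folding list, against 20.8% of all genes tested. Among the 11 were CALR, P4HB, PDIA4, HERPUD1 and CANX. This order was examined after the values of HSPA5 had been seen and is a description of 3 dogs.

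**Figure D2:**
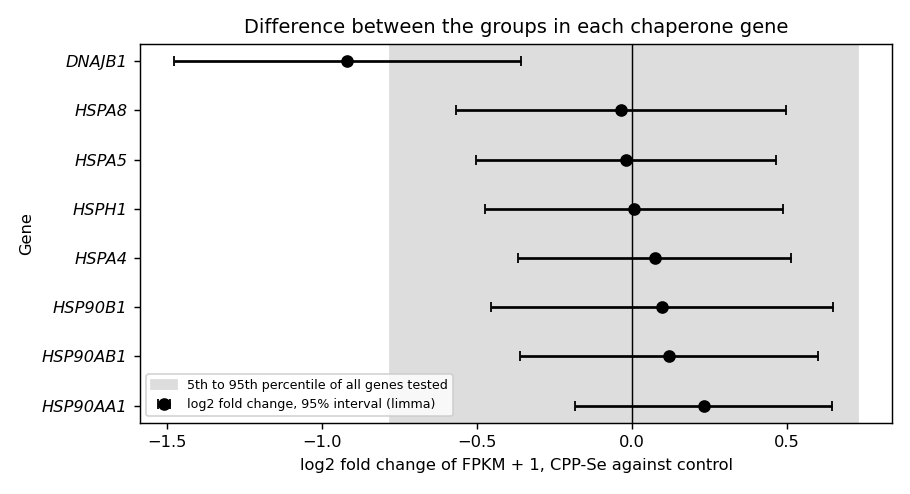
Log2 fold change of FPKM + 1 between the CPP-Se and control groups for each chaperone gene, with the 95% interval from limma, over a grey band from the 5th to the 95th percentile of all genes tested (-0.78 to 0.73). DNAJB1 lies left of the band at -0.92, and the intervals of the other 7 genes hold 0.

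By mean FPKM over all 6 dogs, the order was HSPA8, HSP90AB1, HSP90AA1, HSPA5, DNAJB1, HSP90B1, HSPA4 and HSPH1. HSPA8 was above HSP90AB1 in 6 of 6 dogs, and their ranges over the dogs did not meet. HSP90AB1 was above HSP90AA1 in 6 of 6 dogs, although the ranges overlapped. HSP90AA1 and HSPA5 did not differ beyond their spread, with HSP90AA1 higher in 3 of 6 dogs, and neither did DNAJB1 and HSP90B1, with DNAJB1 higher in 3 of 6 dogs. The order of both pairs turned between the groups, as the control mean of HSPA5 (49.5) was above that of HSP90AA1 (45.5) and the CPP-Se mean of DNAJB1 (17.6) was below that of HSP90B1 (25.7). The ranges of HSPA5 and DNAJB1 also overlapped, with HSPA5 higher in 5 of 6 dogs. HSPA4 lay below HSP90B1 and above HSPH1 in 6 of 6 dogs without overlap of the ranges.

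Summed over the 8 genes, the FPKM was 329, 338 and 336 in the control dogs, against 314, 296 and 387 with CPP-Se. As deposited, the sums of the CPP-Se dogs lay on both sides of the control dogs, with CPP-Se replicate 2 the lowest. With FPKM rescaled to a common sum, a scaling applied to these sums and to the counts without overlap after seeing the data, CPP-Se replicate 2 was instead the highest dog in the summed level (454, against 293 to 341 in the others) and in HSPA8 (133, against 107 to 125). DNAJB1 on that scale was 29.5 to 37.0 in the control dogs and 16.5 to 19.7 with CPP-Se, again without overlap. HSPA8 made up 29.3% to 37.5% of the sum. The share of DNAJB1 was 8.65% to 12.2% in the control dogs and 4.29% to 6.72% in the CPP-Se dogs, without overlap. In FPKM as deposited, CPP-Se replicate 3 was the highest dog for HSPA8, HSP90AB1, HSP90AA1 and HSPA4 (4 of the 8 genes). With a common sum, CPP-Se replicate 2 was the highest dog for all 4 and also for HSPA5, HSP90B1 and HSPH1, but not for DNAJB1.

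Ratios between chaperones within a dog do not depend on the scaling between libraries. The ratio of DNAJB1 to HSPA8, a J-domain protein to the HSP70 it serves, was 0.282, 0.329 and 0.264 in the control dogs, against 0.185, 0.147 and 0.132 with CPP-Se. The groups did not overlap, and the difference of the mean log2 ratio, CPP-Se minus control, was -0.92 (exact permutation test, two-sided, p = 0.1, adjusted p = 0.5 over 5 ratios). A p of 0.1 is the smallest that 3 dogs against 3 allow. DNAJB1 was also set against each of the other 7 chaperone genes after its values had been seen, and in 6 of the 7 ratios the CPP-Se dogs were all below the control dogs. The exception was HSP90B1, where CPP-Se replicate 1 (1.01) exceeded control replicate 3 (0.951). The 7 ratios share DNAJB1 as the numerator, so they are not independent of the DNAJB1 difference or of each other.

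The other 4 ratios overlapped between the groups. HSP90AA1 to HSP90AB1, the inducible to the constitutive form, was 0.852, 0.711 and 0.830 in the control dogs, against 0.982, 0.824 and 0.791 with CPP-Se, below 1 in each dog (difference of the log2 ratio 0.11, exact permutation test, p = 0.6). HSP90B1 to HSPA5, the pair of the ER, stayed between 0.459 and 0.584 in all 6 dogs (difference 0.12, exact permutation test, p = 0.4). The ratios to HSPA8 were 0.0192 to 0.0290 for HSPH1 and 0.0405 to 0.0604 for HSPA4 (exact permutation test, p = 0.9 and p = 0.5). With each dog left out in turn, the differences ranged from 0.021 to 0.18 for HSP90AA1/HSP90AB1, from 0.046 to 0.22 for HSP90B1/HSPA5, from -0.081 to 0.23 for HSPH1/HSPA8 and from -0.027 to 0.26 for HSPA4/HSPA8. For DNAJB1/HSPA8 the range was -1.06 to -0.82.

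**Figure D3:**
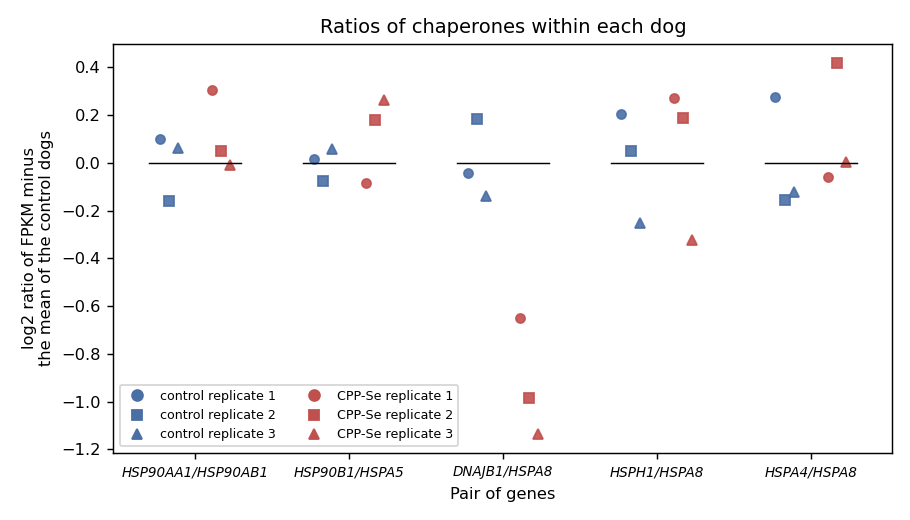
Log2 ratio of the FPKM of chaperone pairs within each dog, minus the mean of the control dogs, so that 0 (black line) is the control mean. DNAJB1/HSPA8 is the pair in which the CPP-Se dogs (red) all lie below the control dogs (blue), and the other 4 pairs overlap.

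Rows without a symbol were looked up by the protein that the file names in their description. Of 22 such rows described as HSC70, HSP90-alpha, HSP90-beta, HSP60, HSP10 or inducible HSP70, 12 had no reads in any dog. Mitochondrial HSP60, the product of HSPD1, is the description of ENSCAFG00000010865 (chromosome 37, 7010850 to 7021556), which had 15.8, 15.1 and 9.40 FPKM in the control dogs, against 14.1, 14.5 and 16.3 FPKM with CPP-Se. The groups overlapped, and the log2 fold change was 0.17 (standard error 0.22), but -0.045 without control replicate 3. It is overlapped on the other strand by ENSCAFG00000010890 (chromosome 37, 6918338 to 7024353), which carries the symbol COQ10B and the description of mitochondrial HSP10, the product of HSPE1. This row had 5.70, 7.41 and 5.88 FPKM in the control dogs, against 12.2, 7.61 and 7.35 FPKM with CPP-Se, so the groups overlapped (log2 fold change 0.43, standard error 0.23, and 0.22 without CPP-Se replicate 1). As the row joins more than a single gene, no level of HSPE1 alone is given.

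The other unnamed rows bear on the counting. ENSCAFG00000046815 (chromosome 23, 2736597 to 2738504) is described as HSP90-alpha and had 58 to 275 reads per dog, with 46.6, 61.0 and 38.0 FPKM in the control dogs, against 36.5, 64.2 and 29.5 FPKM with CPP-Se. Its order among the dogs differed from that of HSP90AA1. ENSCAFG00000001886, on an unplaced scaffold and described as HSC70, had 39 to 56 reads per dog against 1638 to 2594 on HSPA8. Reads shared by such copies could have been split between rows, so HSPA8 and HSP90AA1 are uncertain to that extent. Rows that overlap a chaperone gene were low: SLC35B2 meets the end of HSP90AB1 on the other strand with a mean of 3.60 FPKM, and the 4 protein-coding rows that overlap HSP90B1, TDG the highest, had means of at most 3.42 FPKM.

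The stress-inducible HSP70, as ENSCAFG00000000641 (chromosome 12, 1284465 to 1300710), was below the filter, with 15, 16 and 35 reads in the control dogs, against 11, 21 and 28 reads with CPP-Se. HSF1, the factor that induces the cytosolic chaperones, had 10.2, 11.1 and 13.3 FPKM in the control dogs, against 16.0, 13.0 and 13.2 FPKM with CPP-Se (log2 fold change 0.27, standard error 0.18). HSF2 was below the filter at 0.258 to 0.968 FPKM.

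The wider chaperone network was described with 7 lists of 132 genes, of which 115 were found by symbol and 94 were tested. None of the 94 was a DEG by limma or by limma-voom without or with sample quality weights, and 4 higher and 4 lower genes had an unadjusted p under 0.05, beside 6.87% and 9.10% of all genes tested. Groups without overlap were found for 7 higher genes (7.45%) and 8 lower genes (8.51%), beside 10.4% and 12.6% of all genes tested. The median log2 fold change was 0.07, and 59 of the 94 values were above 0. Without CPP-Se replicate 2, a setting applied to these counts after seeing the data, the counts without overlap were 13 and 13, beside 16.2% and 18.0% of all genes tested, and among the 8 chaperone genes they were again HSP90AA1 and DNAJB1. With a common sum of FPKM, the 94 genes gave 7 higher (7.45%) and 1 lower (1.06%), beside 10.6% and 3.15% of all genes tested. ATF4 was the lower gene, and PFDN5, VBP1, GRPEL1 and LONP1 were among the 7. The groups of DNAJC13, BAG4, AHSA1, PPP5C, ATF6 and CLPX, without overlap in the deposited FPKM, overlapped on that scale.

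Of the J-domain proteins, the family of DNAJB1, 23 others were tested. Their median log2 fold change was 0.04, with 13 values above 0 and 10 below, and the highest was 0.70 in DNAJC9, whose groups overlapped. The FPKM of the 28 found summed to 105 to 110.1 in the control dogs and to 119 to 133 with CPP-Se as deposited, but overlapped with a common sum (97.9 to 112 against 102 to 195). DNAJC13, which acts on endosomes, was the 1 of the 23 (4.35%) that was lower without overlap, beside 12.6% of all genes tested, with 2.99, 2.96 and 3.20 FPKM in the control dogs, against 2.18, 2.54 and 2.52 FPKM with CPP-Se (log2 fold change -0.25). The lowest log2 fold change in the list was -0.25, against -0.92 for DNAJB1. In the 10 mitochondrial genes, GRPEL1, the exchange factor of mitochondrial HSP70, and the protease LONP1 were higher without overlap (log2 fold change 0.52 for both), while CLPX, the unfoldase partner of the protease CLPP, was lower (log2 fold change -0.52). These are 2 higher and 1 lower of 10, beside 10.4% and 12.6% of all genes tested. CLPX had 4.80, 3.68 and 3.28 FPKM in the control dogs, against 2.45, 2.43 and 2.33 FPKM with CPP-Se.

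Among 22 co-chaperones of HSP70 and HSP90, BAG4 and AHSA1 (9.09%) were lower without overlap and the phosphatase PPP5C (4.55%) was higher in the deposited FPKM, beside 12.6% and 10.4% of all genes tested, and with a common sum none of these held. BAG4, an exchange factor of HSP70, had 14.0, 11.8 and 16.0 FPKM in the control dogs, against 7.40, 11.3 and 9.65 FPKM with CPP-Se (log2 fold change -0.52, standard error 0.21, Benjamini-Hochberg adjusted p = 0.285 by limma). AHSA1, which speeds up the ATPase of HSP90, had 16.6, 18.6 and 15.5 FPKM in the control dogs, against 14.4, 13.8 and 12.6 FPKM with CPP-Se (log2 fold change -0.29). PPP5C had 5.60, 4.76 and 5.97 FPKM in the control dogs, against 8.14, 6.55 and 6.31 FPKM with CPP-Se. The list had a median of 0.17, with 15 values above 0 and 7 below. With a common sum, FKBP4 (13.7 to 15.5 against 17.8 to 23.6 FPKM) and STIP1 (8.29 to 11.0 against 12.8 to 18.1 FPKM) were higher without overlap. They are 9.09% of the list, beside 10.6% of all genes tested, and none of the list was lower without overlap on that scale.

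Of 12 subunits of the chaperonin TRiC and of prefoldin, which fold actin and tubulin, VBP1, PFDN5, CCT2 and CCT5 (4, but with a common sum only VBP1 and PFDN5) were higher without overlap, beside 10.4% of all genes tested, and 10 had a log2 fold change above 0, as had 4884 of all 9847 genes. PFDN5 had 26.1, 32.3 and 36.6 FPKM in the control dogs, against 52.1, 38.4 and 67.4 FPKM with CPP-Se (log2 fold change 0.69, standard error 0.25, Benjamini-Hochberg adjusted p = 0.255 by limma). VBP1 had 1.95, 1.91 and 1.52 FPKM in the control dogs, against 2.43, 3.41 and 5.08 FPKM with CPP-Se (log2 fold change 0.70). Both are prefoldin subunits.

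In the ER list 20 genes were tested, among them ATF4, a transcription factor of the integrated stress response. ATF4 had 193, 193 and 202 FPKM in the control dogs, against 124, 98.7 and 136 FPKM with CPP-Se. Each CPP-Se dog was below each control dog, and the log2 fold change was -0.72 (standard error 0.20, 95% interval -1.18 to -0.27, Benjamini-Hochberg adjusted p = 0.183 by limma). ATF6, a sensor of the unfolded protein response, had 5.21, 7.19 and 6.43 FPKM in the control dogs, against 3.99, 4.65 and 3.86 FPKM with CPP-Se (log2 fold change -0.49). In all, 4 of the 20 were lower without overlap and 0 higher, beside 12.6% and 10.4% of all genes tested (1, ATF4, with a common sum), and the median was -0.05. Of the 3 small heat shock proteins tested none was without overlap in the deposited FPKM. With a common sum, HSPB3 (1 of the 3) was higher without overlap, at 2.49 to 3.90 against 4.32 to 6.84 FPKM, beside 10.6% of all genes tested. HSPB3 rested on 8 to 22 reads per dog. From the list of heat shock factors and further HSP70 relatives 4 genes were tested, with log2 fold changes from -0.04 to 0.27.

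**Figure D4:**
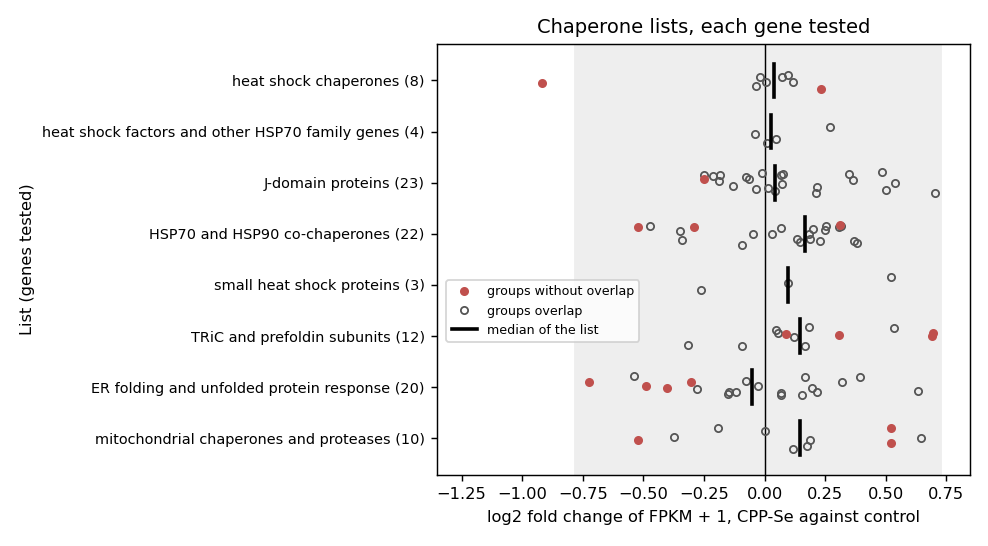
Log2 fold change of FPKM + 1 for each tested gene of the chaperone lists, with the number tested in brackets, a black bar at the median of each list, filled red points where the groups do not overlap in the deposited FPKM, and a grey band from the 5th to the 95th percentile of all genes tested. DNAJB1, the leftmost point at -0.92, lies outside the band, and the medians lie between -0.05 and 0.17.

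The genes with a symbol whose pattern over the 6 dogs was most like that of 3 chosen chaperones were found by the root mean square distance between centred log2(FPKM + 1) values. For DNAJB1, whose own values deviated from their mean by 0.53, these were MAFF (distance 0.15), SLC40A1 (0.17) and ECH1 (0.17). MAFF encodes a small Maf transcription factor and SLC40A1 the iron exporter ferroportin. MAFF had 4.33, 5.32 and 2.57 FPKM in the control dogs, against 2.08, 0.775 and 1.69 FPKM with CPP-Se. For HSPA8 they were NIFK, PPP6C and LRP11, at distances of 0.04 to 0.06, and for HSPA5 they were WDR45B, SCYL3 and SUZ12, also at 0.04 to 0.06. These distances describe 6 dogs and were not tested.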

How the data were processed

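RNA of whole blood was sequenced as 1 library per dog. The authors used HISAT2 2.0.5 against the Ensembl release 100 dog assembly, assembled genes with StringTie and deposited FPKM per gene and the gene length in bases. The submitters' processing notes also name fastp 0.19.7 and featureCounts 1.5.0-p3. The library size behind FPKM and the use of strand or shared reads are not given in the sources used here. FPKM times gene length was a whole multiple of a step for 100% of genes (tolerance 0.01 reads), and these multiples were taken as reads. Intervals cover the spread between dogs. Genes whose mean reached 1 FPKM were fitted on log2(FPKM + 1) with limma 3.58.1 in R 4.3.3 (lmFit, eBayes with a trend), two-sided. Ratios were compared by exact permutation tests in scipy 1.17.1. The fit was also run on simulated reads with known changes, larger than that of DNAJB1. No result here rests on that run. Alternatives were another pseudocount, filters, scalings, weights, limma-voom with the library sizes that FPKM imply, a replicate block and each dog left out. The labels call the replicates biological and pair no dogs beyond the replicate number. Genes were named by a rule: the chaperones, HSF1, HSF2, the largest differences without overlap in each list (up to 2 per direction), unnamed copies, neighbours, and closest patterns. Other genes were chosen after their values were seen. The members and lists were chosen with earlier results of these data known. The planned ratio of HSPE1 to HSPD1 was not computed, as neither symbol has a row.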

Additional observations from a re-analysis of the deposited data

How the results depend on the processing

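DNAJB1 stayed below 0 and AHSA1, BAG4, ATF4, ATF6, CLPX and DNAJC13 likewise under all alternatives that tested them, and no alternative made a chaperone gene or a gene of the 7 lists a DEG. The number of DEGs over all genes was 3. It was 0 with a pseudocount of 0.1 and without a filter on FPKM, 1 with a filter of 5 FPKM and with limma-voom, 12 with a common sum of FPKM, 156 with limma-voom with sample quality weights, and 0 to 14 with each dog left out, the most without CPP-Se replicate 2. With the replicate number as a block it was 1. The deviations of same-numbered dogs had correlations across genes of 0.0165, -0.0900 and -0.0433, not every dog correlated best with its own number, and the number was not taken as a pairing. The block changed no call of the genes named here. A common sum moved the median log2 fold change of all genes to 0.13 and a common sum without hemoglobin to 0.12. Signs turned in genes near 0. HSPA8 was 0.12 with a common sum, 0.11 with that sum without hemoglobin and 0.065 with quantile normalization, and HSPA5 was 0.13, 0.13 and 0.11 under the same settings, 0.000014 with a common upper quartile and 0.021 with array weights. HSPA4 was -0.0072 with array weights and -0.054 with quality weights in limma-voom. HSPH1 was -0.020 with quantile normalization, -0.072 with array weights, -0.013 with limma-voom and -0.035 with quality weights. ENSCAFG00000001886 was 0.047 with a common sum and 0.043 without hemoglobin. The cause was not tested. With each dog left out the ranges were -0.22 to 0.15 for HSPA8, -0.17 to 0.13 for HSPA5, -0.048 to 0.24 for HSP90AB1, -0.087 to 0.27 for HSP90B1, -0.032 to 0.17 for HSPA4, -0.11 to 0.093 for HSPH1, -0.52 to 0.024 for ENSCAFG00000046815, -0.045 to 0.30 for ENSCAFG00000010865, 0.22 to 0.54 for ENSCAFG00000010890 and -0.26 to 0.16 for ENSCAFG00000001886.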

Other observations

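Beside the HSP90-alpha copy on chromosome 23 lies ENSCAFG00000043646 (2736914 to 2738755), described as a putative HSP90-alpha A5 and named here after its values were seen. It had 56, 86 and 43 reads in the control dogs, against 34, 16 and 29 reads with CPP-Se. The FPKM were 8.55, 14.0 and 5.57 in the control dogs, against 5.53, 1.25 and 4.94 with CPP-Se, where CPP-Se replicate 1 was just below control replicate 3. The log2 fold change was -1.15 (standard error 0.46, Benjamini-Hochberg adjusted p = 0.284 by limma). It overlaps ENSCAFG00000046815 on the same strand, whose groups overlapped.

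HSPB6, a small heat shock protein best known from muscle and also named after its values were seen, had a level near that of HSPA8 in this blood. Its FPKM were 81.3, 76.8 and 118 in the control dogs, against 128, 42.4 and 166 with CPP-Se, with the lowest value in CPP-Se replicate 2, the dog with the lowest share of hemoglobin reads. SDF2L1, an ER protein found with HSPA5 and also chosen after its values were seen, had 39.5, 43.8 and 41.0 FPKM in the control dogs, against 91.7, 72.4 and 41.0 FPKM with CPP-Se, so a single CPP-Se dog stayed at the control level.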
